A study of Mus musculus with 6 samples.

Results

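Peroxisomes are single-membrane organelles that oxidise very long chain fatty acids, help to make ether lipids and break down hydrogen peroxide. They are built by proteins called peroxins, encoded by the Pex genes, which insert membrane proteins and import folded enzymes from the cytosol. Enzymes carry an address signal, of which PTS1 is read by the receptor Pex5 and PTS2 by the receptor Pex7. In humans, loss of PEX7 causes rhizomelic chondrodysplasia punctata.

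The values below are for 9 peroxin genes of mouse myeloid progenitors: Pex5 and Pex7 (receptors), Pex13 and Pex14 (docking), Pex2 (ubiquitin ligase), Pex6 (receptor export) and Pex3, Pex16 and Pex19 (membrane protein insertion). They were found by gene name in the deposited gene and splice junction tables, which held 13932 genes in all. Of the 9, 8 matched by name and Pex2 by its older symbol Pxmp3, and all 9 passed the filter on low counts. The genes were singled out with differences between the genotypes of these same libraries already known, above all a shift in a Pex7 exon of 78 nt. Their differences between genotypes are therefore given as descriptions, with no test.

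The study compared common myeloid progenitors expressing mutant or normal U2AF1, a splicing factor subunit that contacts the AG closing each intron. S34F is a substitution in U2AF1 that recurs in myelodysplastic syndromes. Mice were transplanted with marrow carrying rtTA, a transactivator switched on by doxycycline, and a transgene under its control, either U2AF1(S34F) (S34F below) or U2AF1(WT) (WT). Both groups received doxycycline chow for 5 days, after more than 6 weeks of engraftment, so the WT mice also had an induced U2AF1 transgene. Progenitors were sorted from bone marrow as Lineage-, c-Kit+, Sca-1-, CD34+ and Fcgamma-, and each of the 3 libraries per genotype came from a pool of 4 to 5 mice. The labels used here name neither strain nor age.

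S34F libraries held 46827909 to 51862032 gene counts and WT libraries 54727541 to 94562984, so depth moved with genotype. Mitochondrial genes took 2.44% to 2.77% of counts in S34F and 1.27% to 2.04% in WT. The Y-linked gene Ddx3y was read only in replicate 1 of both genotypes, at 5714 and 5580 counts, against 0 in the other 4 libraries. Of the genes of the sorting gate, Cd34 was at 791 ± 87.7 CPM (counts per 1000000 counts, after scaling) in S34F and 841 ± 56.1 in WT (mean ± SD, n = 3 here and below), and Kit at 172 ± 21.7 and 142 ± 60.0. Ly6a, which encodes Sca-1, was at 1.28 ± 0.183 and 1.54 ± 0.392. Fcgr3, which encodes an Fc gamma receptor that the gate was to leave out, was read at 33.4 to 78.1 CPM in S34F and 38.8 to 111 in WT, so its RNA was present in every library although the sort was labelled Fcgamma-. Of 10 dendritic cell and macrophage markers, 9 were measured and C1qa was not analysed here. Their summed level was 57.1 to 109 CPM in S34F and 183 to 380 CPM in WT, and 5 megakaryocyte markers summed to 85.7 to 114 and 124 to 167. Of the 9, 8 were lower in S34F, while Itgax was higher, at 16.9 against 10.4 CPM on average with overlapping genotypes. Itga2b made up most of the megakaryocyte sum, at 88.3 and 132 CPM, and was the 1 of the 5 whose genotypes did not overlap. Pf4 and Vwf had log2 fold changes of 0.04. The sums of 7 erythroid markers, 36.8 to 48.2 and 44.2 to 88.7, overlapped. So did those of neutrophil markers, 6574 to 10341 and 6358 to 9567, and lymphoid markers, 54.5 to 73.1 and 40.1 to 71.1. Mast cell and basophil markers summed to 160 to 577 and 201 to 415, again with overlap. The part of these marker differences, of depth and of the mitochondrial share in the peroxin values was not tested. In these bulk libraries fewer cells of a type and less RNA per cell cannot be told apart. The tables do not separate reads of the transgene from those of the endogenous gene, so U2af1 counts were not used to check the labels.

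The Pex7 exon that carried the shift is exon 4 of 10 in the transcript Pex7-001, at chr10:19614531-19614608 on the minus strand (mm9). It is coding, in frame, and holds codons 109 to 134 of 318, so the transcript without it would have 292 codons. Pex7 is built of WD40 repeats, and whether the shorter form makes a protein was not measured. The annotation also holds 2 coding transcripts that lack the exon, Pex7-201 with 292 codons and Pex7-002 with 225. The exon, its acceptor (the 3' splice site before it), its donor and the acceptor of exon 5, which both forms use, are shown because they are the sites at which the 2 forms part. All were read from the mm9 genome, 5' to 3' on the minus strand. Capitals mark the last 3 intron bases at an acceptor and the first 2 intron bases at the donor.
Pex7 exon 4: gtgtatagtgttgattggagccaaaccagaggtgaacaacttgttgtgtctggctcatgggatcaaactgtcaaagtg
Pex7 exon 4 acceptor (chr10:19614606-19614628): tgaagacttgactttttTAGgtg
Pex7 exon 4 donor (chr10:19614525-19614533): gtgGTatgt
Pex7 exon 5 acceptor (chr10:19614162-19614184): ttgatctcatttgttttCAGtgg

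In S34F progenitors more Pex7 transcripts lacked this exon. Inclusion, the mean of both inclusion junctions over that mean plus the skipping junction, was 85.7%, 86.9% and 85.4% in S34F replicates 1 to 3. It was 95.4%, 95.2% and 95.7% in WT. All 3 S34F libraries were below all 3 WT libraries, and the exact binomial 95% intervals of the libraries, from 81.9% to 89.7% in S34F and from 93.1% to 97.2% in WT, did not meet either. These intervals cover counting error only, and the exon was chosen on this contrast, so they are no test of it. Skipping averaged 14.0 ± 0.782% in S34F and 4.54 ± 0.247% in WT, a difference in inclusion of -9.45 percentage points with a standard error of 0.474.

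The reads behind these shares are given for each form. The skipping junction had 70, 66 and 66 reads in S34F and 21, 42 and 44 in WT, although every WT library was deeper. The upstream inclusion junction had 442, 445 and 381 reads against 451, 924 and 997, and the downstream one 396, 431 and 394 against 430, 751 and 970. Per 1000000 junction reads of the library, skipping was 1.57, 1.61 and 1.54 in S34F and 0.452, 0.672 and 0.532 in WT. The skipping level was thus 2.85 times that of WT, and no S34F library overlapped a WT library. The inclusion level per 1000000 junction reads was 9.70 ± 0.873 and 11.6 ± 1.98, a ratio of 0.837, and here S34F replicate 2 lay above WT replicate 1. Of 14 Pex7 junctions, 10 had at least 200 reads over the 6 libraries. The 9 of these other than the skipping junction, the inclusion junctions among them, had S34F to WT ratios between 0.811 and 1.10. The lowest ratio was that of the upstream inclusion junction. The remaining 4 junctions held 15 to 35 reads each. In the authors' deposited table the same skipping junction has a log2 fold change of 1.67 within its gene.

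**Figure D1:**
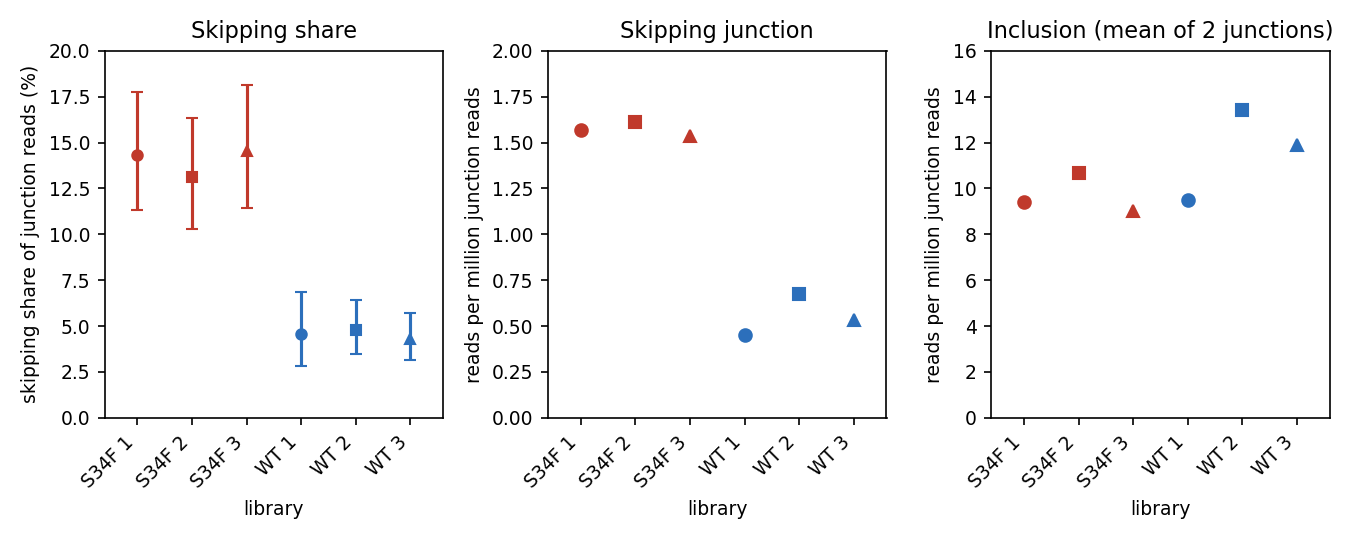
Pex7 exon 4 in each of the 6 libraries. From left to right, the share of transcripts skipping the exon in percent (bars are exact binomial 95% intervals), the reads of the skipping junction and the mean reads of both inclusion junctions, each per 1000000 junction reads. S34F libraries are red and WT libraries blue. The skipping share is 14.0% on average in S34F and 4.54% in WT without overlap, while the inclusion junctions overlap between genotypes.

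**Figure D2:**
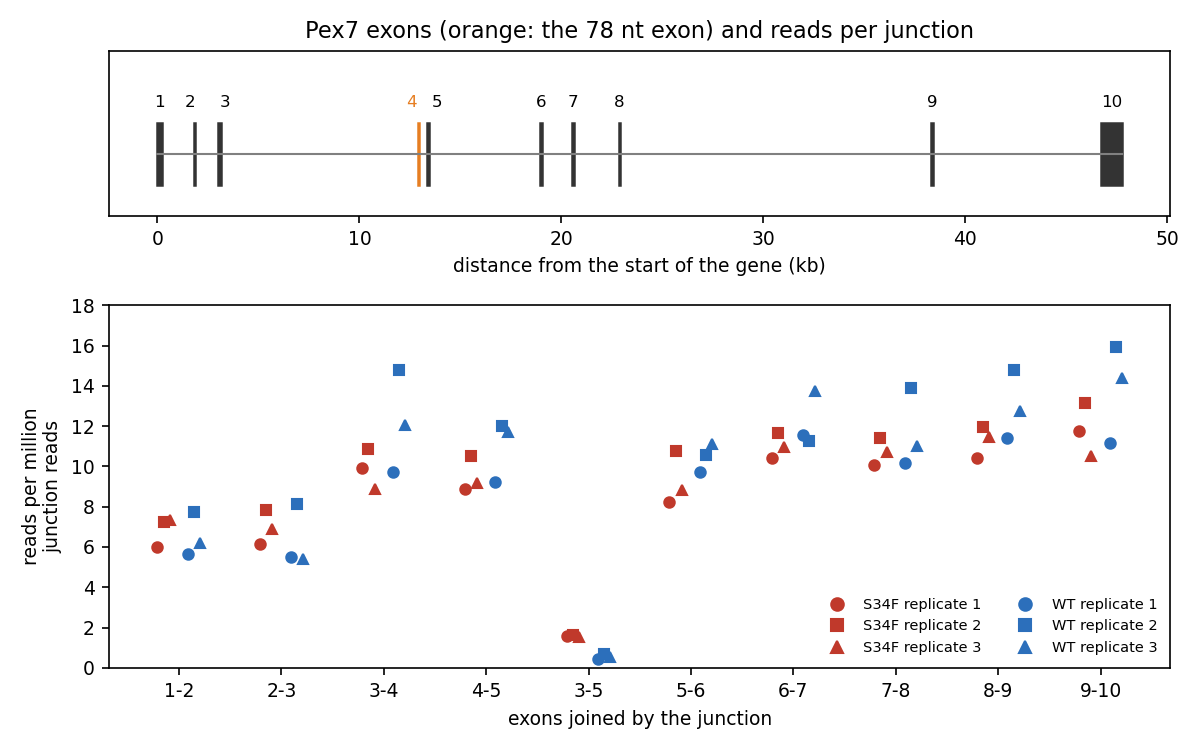
Exons of Pex7 by distance from the start of the gene in kb (top, exon 4 in orange) and reads of the 10 Pex7 junctions with at least 200 reads, per 1000000 junction reads in each library (bottom, by the exons joined). The junction from exon 3 to exon 5, which skips exon 4, is the lowest of these 10 and is higher in S34F, at 1.57 against 0.552, while the other 9 have ratios between 0.811 and 1.10.

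Cassette exons are exons that some transcripts skip, and 8542 of them were measured with at least 20 reads in every library and each form at 2% or more. In a quasi-likelihood fit over all of them edgeR called 0 (0% called), Pex7 included, at an adjusted p under 0.05, with 876 at an unadjusted p under 0.05. DESeq2 called 114 (1.33%), of which 81 were lower in S34F (0.948%), and the Pex7 exon was among those 81. The genotypes did not overlap in 19.2% of exons. Nothing is read from these calls for Pex7, since the exon was chosen on this contrast.

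Position -3 of an acceptor is the base just before its AG. It is T at Pex7 exon 4 and C at exon 5, as the sequences above show. Of the 9 Pex7 acceptors with at least 30 reads, 4 had T and 5 had C, and of 88 such acceptors in all 9 genes, 35 (39.8%) had T, 49 had C and 4 had A. Over all genes T stood at 30.8% of 126071 acceptors and C at 62.5%. Among the cassette exons, the 2918 with T had a median difference in inclusion of -2.40 points, and 78% of them were lower in S34F. The 4875 with C had a median of 0.35 points and the 680 with A a median of 1.23 points. Pex7 exon 4 was also lower in S34F, but it was chosen for its shift in these libraries, so nothing is read from its direction or size here. Whether the base at position -3 had a part in the Pex7 shift was not tested. The other 2 cassette exons of the 9 genes with T at position -3, in Pex5 and Pex2, differed by -0.62 and -3.30 points with overlapping genotypes. A pair of Pex2 acceptors, described below, has T at position -3 of its proximal site and C at its distal site. The share of the proximal site was higher in S34F, the opposite direction to most cassette exons with T. It was higher by 13.7 points from the donor of a Pex2 cassette exon, without overlap. From the upstream donor it was higher by 6.25 points, with overlap. Whether position -3 had a part in this was not tested.

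The level of Pex7 as a whole differed little. It was 50.3, 56.2 and 49.96 CPM in S34F and 48.3, 63.5 and 59.0 CPM in WT, so WT replicate 1 had the lowest value of all 6. The means were 52.1 ± 3.51 and 56.9 ± 7.81, with a log2 fold change of -0.13 and a standard error of 0.13 (chr10, 19579735 to 19627495, minus strand). Multiplying gene level by skipping share in each library gives 7.27 ± 0.0821 CPM of the skipped form in S34F and 2.59 ± 0.420 in WT. The included form, by gene level times inclusion share, was 44.9 ± 3.44 and 54.3 ± 7.42 CPM. The exon shift therefore stood beside a gene level that differed by less than the spread between replicates.

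Pex5 is the receptor for PTS1, and in mammals a long form of Pex5, made by including an alternative exon, also binds Pex7 and carries it with its cargo to the peroxisome. An alternative Pex5 exon of 111 nt, or 37 codons, was measured at chr6:124354151-124354261 on the minus strand (codons 216 to 252 of 639 in Pex5-201). Its acceptor is shown for comparison with Pex7 exon 4, with the last 3 intron bases in capitals and C at position -3.
Pex5 111 nt exon acceptor (chr6:124354259-124354281): tgtgtgtctctgtgcccCAGttc

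Inclusion of the Pex5 111 nt exon was 36.1%, 31.4% and 29.5% in S34F and 27.2%, 36.6% and 32.4% in WT. The libraries were interleaved, with means of 32.3 ± 3.39% and 32.1 ± 4.71%. The form without this exon was thus the commoner one in both genotypes. Without both replicate 1 libraries the difference of 0.23 points became -4.09 points, still within the range of the libraries. A second Pex5 exon, of 36 nt with T at position -3, was included at 97.1 ± 0.81% and 97.7 ± 0.80%. The Pex5 gene level was 74.4, 82.5 and 75.4 CPM in S34F and 83.0, 71.9 and 84.4 in WT, with a log2 fold change of -0.04 and a standard error of 0.10 (chr6, 124346834 to 124365085). Both receptor genes thus overlapped in level between genotypes, and so did both Pex5 exons in share. The Pex7 exon did not overlap, but it was chosen for its shift, and 19.2% of all cassette exons did not overlap either.

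Pex13 and Pex14 form the docking site at the peroxisomal membrane to which loaded receptors bind. Pex13 was at 64.4, 65.8 and 56.1 CPM in S34F and 55.1, 77.8 and 68.3 in WT (chr11, 23546479 to 23565959). Both its lowest and its highest value were in WT, and its log2 fold change was -0.11 with a standard error of 0.14. Pex14 was at 19.5, 23.7 and 20.2 CPM against 23.9, 20.3 and 24.1 (chr4, 148334644 to 148473985), with -0.11 and a standard error of 0.13. Neither gene had a cassette exon or a pair of alternative 3' splice sites with enough reads in both forms to be measured. Pex13 overlaps Pus10 on the opposite strand by 286 nt, and whether the counting separated strands is not given in the sources used here.

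Pex6 is an AAA ATPase that helps to pull used receptors back out of the membrane. It was the 1 member whose gene level did not overlap between genotypes, where 15.6% of all genes did not overlap. Pex6 was at 53.6, 62.4 and 66.6 CPM in S34F and 79.1, 76.2 and 90.5 in WT. The means of 60.8 ± 6.62 and 81.9 ± 7.55 gave a log2 fold change of -0.43 with a standard error of 0.12 (chr17, 46848412 to 46862490, plus strand). Reads across Pex6 introns gave 73.6, 82.2 and 88.9 per 1000000 junction reads in S34F and 107, 100.5 and 122 in WT. That is a ratio of 0.744, beside 0.743 for the gene counts, and again without overlap. In the authors' deposited table Pex6 has a log2 fold change of -0.38. Pex6 lies within Gm16736, a noncoding gene annotated on the same strand that was not analysed here. No cassette exon or alternative 3' splice site of Pex6 was measured.

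Pex2 is a RING ubiquitin ligase that marks receptors for export, and the data show several choices among its noncoding exons. Its level was 33.8, 36.6 and 34.1 CPM in S34F and 29.7, 38.4 and 39.7 in WT (chr3, 5560188 to 5576239), with both the lowest and the highest value in WT and a log2 fold change of -0.04 with a standard error of 0.13. A pair of Pex2 acceptors 4 nt apart showed the larger difference in share. Both are shown in 1 stretch, with the last 3 intron bases of each in capitals; the proximal one, met first from the donor, ends in TAG and the distal one in CAG.
Pex2 neighbouring acceptors (chr3:5561758-5561784, minus strand): cctaattgtttttttccTAGaCAGcat

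Among reads spliced from the donor of the Pex2 exon of 64 nt, the proximal TAG took 98.7%, 94.8% and 100% in S34F and 77.3%, 83.0% and 92.3% in WT. The distal site had 1, 4 and 0 reads in S34F and 17, 24 and 16 in WT. All S34F libraries were above all WT libraries, with means of 97.8 ± 2.71% and 84.2 ± 7.54%, or 13.7 points. The 0 reads in S34F replicate 3 allow a distal share of up to 5% (3 of 60 reads). From the upstream donor the same pair overlapped, with 82.9%, 72.1% and 75.0% against 83.5%, 62.4% and 65.4%. Summed over both donors the proximal share was 82.5 ± 4.84% in S34F and 74.9 ± 6.34% in WT, which overlap. Of all 4433 pairs of alternative 3' splice sites, 15.2% did not overlap between genotypes, edgeR called 0% (281 pairs at an unadjusted p under 0.05) and DESeq2 1.4%, with 0.835% called as lower in S34F. Both tools called 0 of the 3 member pairs.

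The Pex2 noncoding exons themselves were included at overlapping shares. The 64 nt exon, with C at position -3, was at 34.7 ± 3.37% in S34F and 35.8 ± 6.36% in WT. The 66 nt exon, with T, was at 2.44 ± 1.59% and 5.75 ± 4.26%, and the 143 nt exon, with C, at 6.11 ± 2.89% and 7.85 ± 4.07%. In all 3 the genotypes overlapped.

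Pex3, Pex16 and Pex19 place proteins in the peroxisomal membrane: Pex19 is their soluble chaperone, Pex3 its membrane anchor and Pex16 a membrane protein that recruits Pex3 in mammals. Pex3 was at 27.3, 29.7 and 27.6 CPM in S34F and 27.04, 33.0 and 31.7 in WT (chr10, 13243648 to 13272948), with a log2 fold change of -0.12 and a standard error of 0.12. Pex16 was at 11.9, 18.1 and 15.2 against 16.0, 16.9 and 16.0 CPM (chr2, 92214833 to 92221374), with -0.11 and 0.17. Pex19 was at 48.7, 44.3 and 49.3 against 43.3, 51.4 and 49.7 CPM (chr1, 174056886 to 174066624), with -0.02 and 0.11. The genotypes overlapped for all 3. Pex3 overlaps Adat2 on the opposite strand by 249 nt.

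Splicing of these 3 genes also overlapped between genotypes. Inclusion of a Pex3 exon of 97 nt averaged 99.5 ± 0.85% in S34F and 96.8 ± 2.97% in WT, and its skipping junction had 2, 0 and 0 reads in S34F. The libraries at 0 allow skipping of up to 1.88% and 2.12%. In WT it had 1, 7 and 27 reads, so WT replicate 3 held most of them. A Pex16 exon of 134 nt was at 95.4 ± 0.71% and 94.9 ± 2.84%, and the proximal one of 2 Pex19 acceptors 52 nt apart took 91.7 ± 3.29% and 89.9 ± 6.30%. All 3 had C at position -3.

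**Figure D3:**
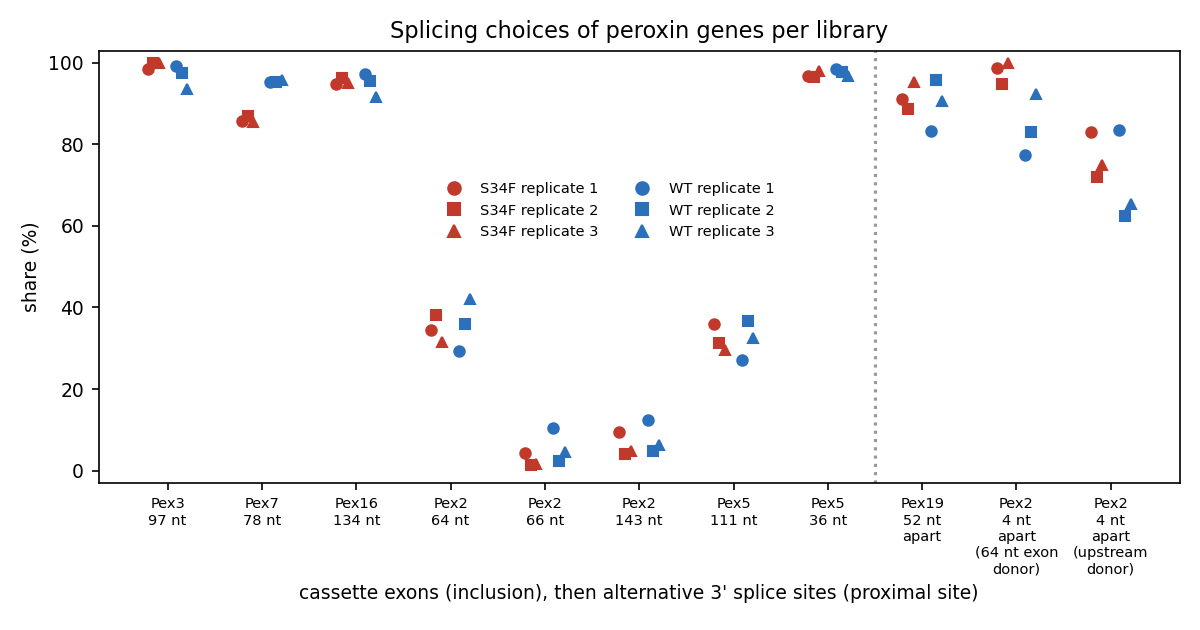
Every measured cassette exon (share included) and pair of alternative 3' splice sites (share of the proximal site) of the 9 genes, in percent, with a point per library. S34F is red and WT blue. The genotypes do not overlap for Pex7 exon 4 and for the Pex2 pair spliced from the 64 nt exon; in the other 9 they do.

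Of the 9 genes, 5 had measurable cassette exons, 8 in all. The 7 other than Pex7 exon 4 differed by -3.30 to 2.68 points, beside 26.4% of all 8542 exons that differed by 5 points or more. At the gene level all 9 log2 fold changes were below 0, with a median of -0.11, and over all genes 7074 of 13905 were below 0, with a median of -0.005. That direction depended on single libraries: without WT replicate 2 it held for 6 of 9 members, and without WT replicate 3, or without both replicate 1 libraries, for 7 of 9. It held in every setting for Pex3, Pex6, Pex7 and Pex14. Both tools called 0 members, beside 0% of all genes by edgeR and 0.69% by DESeq2, and 1 member, Pex6, was among the 1265 genes at an unadjusted p under 0.05.

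**Figure D4:**
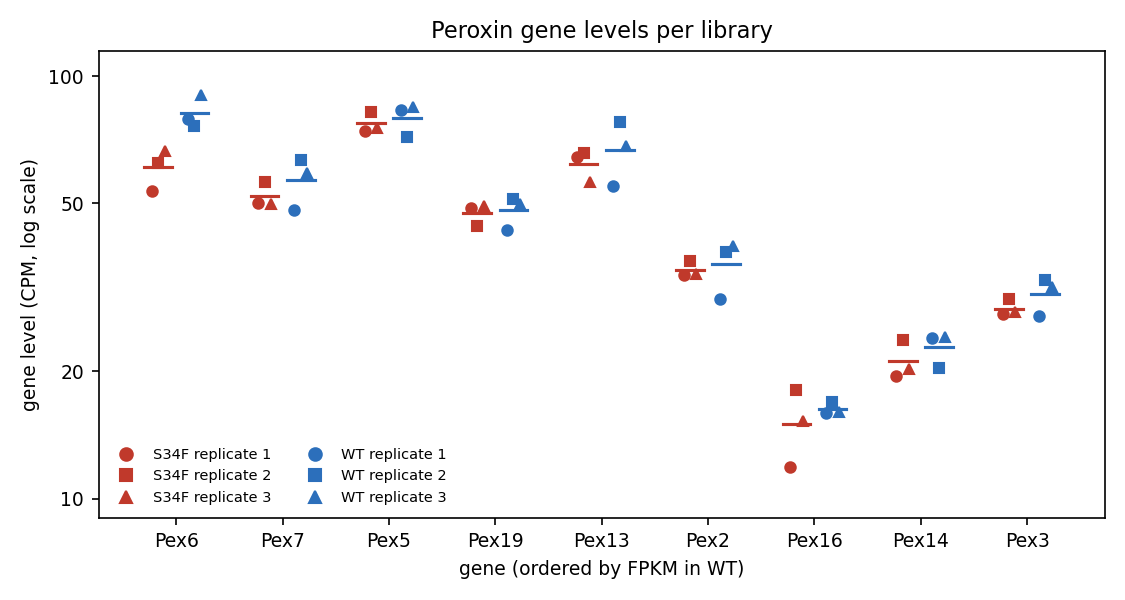
Gene level of the 9 peroxins in CPM on a log scale, with a point per library and a line at the mean of each genotype. S34F is red and WT blue. Pex6 is the 1 gene whose genotypes do not overlap, at 60.8 and 81.9 CPM on average.

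To compare levels between genes, the authors' FPKM, which divide by gene length, were used within each genotype. Over 9468 genes the median S34F to WT ratio of these FPKM was 0.794, so they were not compared between genotypes. In WT the order was Pex6 (21.6 ± 4.37 FPKM), Pex7 (18.7 ± 3.30), Pex5 (18.04 ± 2.75), Pex19 (15.8 ± 2.19), Pex13 (12.2 ± 2.90), Pex2 (9.62 ± 2.49), Pex16 (9.49 ± 1.12), Pex14 (7.78 ± 1.07) and Pex3 (7.15 ± 1.03). The libraries of every pair of neighbours in that order overlapped. In S34F Pex7 (14.5 ± 0.78 FPKM) and Pex5 (14.4 ± 0.44) came first and Pex6 (13.2 ± 2.01) next after Pex19 (13.4 ± 2.21). Pex13 (8.65 ± 0.62) overlapped neither Pex6 above it nor Pex2 (7.16 ± 0.45) below it, and Pex16, Pex14 and Pex3 followed in the same order as in WT. Both cargo receptors were thus among the 4 most abundant transcripts of the set in each genotype, and the membrane anchor Pex3 the least.

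Members varied together to different degrees over the 6 libraries. On log2(CPM + 0.5) the level of Pex7 had a Pearson r of 0.991 with Pex3, 0.927 with Pex13 and 0.887 with Pex2. With Pex6, Pex16 and Pex19 it was between 0.405 and 0.526, with Pex14 0.075 and with Pex5 -0.14. Of 9164 genes at 10 CPM or more on average, those most like Pex7 were Spg21 (r = 0.996), Snw1 (0.994), Utp14a (0.994), Psmb1 (0.991) and Pex3. These values describe 6 libraries that share depth and scaling and that include both genotypes.

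Further peroxins were measured beside the 9. Pex10, a ubiquitin ligase that works with Pex2, was at 11.6 ± 0.738 CPM in S34F and 14.5 ± 2.47 in WT, with a log2 fold change of -0.33 and a standard error of 0.16. Pex26, the membrane anchor of Pex6, was at 20.8 ± 0.610 and 21.6 ± 2.51 CPM, with -0.05 and 0.13. Pex11a and Pex11g belong to a family that acts in peroxisome division. Pex11a was at 3.61 ± 0.615 and 3.76 ± 0.0655 CPM, with -0.06 and 0.21, and Pex11g at 4.87 ± 0.644 and 5.89 ± 0.210 CPM, with -0.27 and 0.18. Of these 4 genes, Pex11g was the 1 whose genotypes did not overlap, and both tools called 0. A Pex26 cassette exon of 308 nt differed by -6.16 points and a Pex26 pair of acceptors by -8.22 points, both with overlapping genotypes.

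Of the enzymes that carry the PTS2 signal read by Pex7, 3 of 4 were measured. Acaa1a, a thiolase of fatty acid oxidation, was at 42.4 ± 7.42 CPM in S34F and 44.0 ± 7.29 in WT. Phyh, which starts the breakdown of phytanic acid, was at 29.4 ± 5.92 and 24.8 ± 2.33. Agps, an enzyme of ether lipid synthesis, was at 218 ± 49.5 and 247 ± 39.9. Their log2 fold changes were -0.05, 0.25 and -0.18 and all 3 overlapped between genotypes.

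Of 35 further peroxisomal enzymes, 27 were measured, 7 with a log2 fold change above 0 and 20 below (median -0.13). Both tools called 0, and 4 had an unadjusted edgeR p under 0.05, all below 0. These were Hsd17b4 (-0.46), a multifunctional enzyme of fatty acid oxidation, Amacr (-0.48), Decr2 (-0.45) and Paox (-0.26). Over all genes 1265 of 13905 had an unadjusted edgeR p under 0.05, 654 of them below 0. Of 10 genes of membrane transport and fission, 7 were above 0, with a median of 0.09 and 0 calls by both tools. Abcd3, a transporter of fatty acids into the peroxisome, was at 66.3, 59.5 and 59.3 CPM in S34F and 54.7, 21.4 and 21.3 in WT, with a log2 fold change of 0.93, a standard error of 0.35 and an edgeR adjusted p of 0.545. Its WT replicate 1 lay near the S34F libraries. Without that library the log2 fold change of Abcd3 was 1.53 (edgeR adjusted p = 0.00528), and Hsd17b4 (-0.61, 0.0113) and Gnpat (0.37, 0.0447) were called as well. In that setting edgeR called 1172 of all 13921 genes. The setting was looked at for these lists after the values were seen, so nothing is read from these calls.

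**Figure D5:**
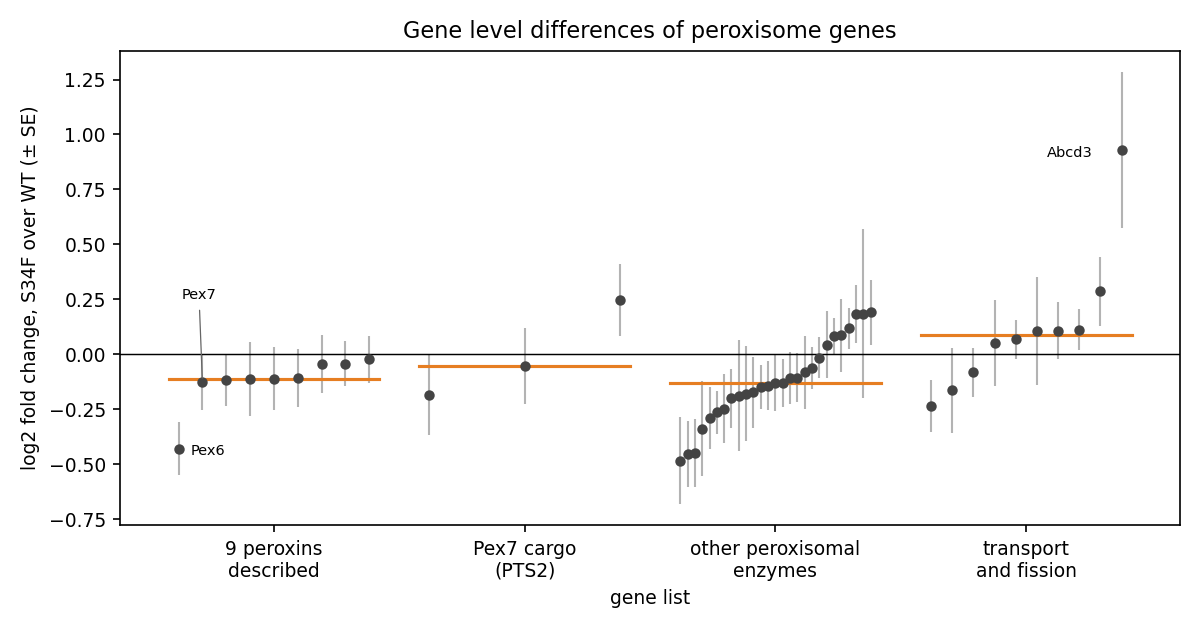
Log2 fold change of S34F over WT for the 9 peroxins, the PTS2 cargo, other peroxisomal enzymes, and genes of membrane transport and fission. Each point is a gene with its standard error, sorted within each list, and orange lines are medians. The further peroxins are not drawn. The 9 peroxins lie between -0.43 and -0.02, and of the genes drawn Abcd3 (0.93) lies furthest from 0.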

How the data were processed

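The authors deposited raw read counts per gene and per splice junction, a column per library, without normalization. Per the file headers the tables also hold the authors' FPKM per gene, fold changes as ratios and on the log2 scale, p-values, a mean junction signal and a DEXSeq score; of these the FPKM and the values named as the authors' were used. The series text names TopHat 2.0.8 and mm9, and the submitters' processing notes name HTSeq 0.5.4p1 and DESeq2 1.6.1 with no role given; strand use in counting is not given in the sources used here. Genotype came from the sample titles, since the genotype entry reads S34F for all 6 samples.

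Gene counts were fitted with edgeR 4.0.16 (TMM, its default expression filter, quasi-likelihood F test, 13905 genes), with DESeq2 1.42.0 as the alternative, at a Benjamini-Hochberg adjusted p under 0.05, two-sided. CPM are TMM-scaled counts. Cassette exons of 10 to 1000 nt and acceptors 3 to 500 nt apart needed 20 reads in every library and both forms at 2% of reads or more. Each event entered the fit as 2 counts per library, with terms for library, form and genotype by form. Printed junction positions were checked against the genome: a shift of 1 base inward gave GT-AG in 99.985% of GT-AG introns, so they are exon bases. Sequences come from the mm9 genome and transcripts from its Gencode annotation. Libraries of a genotype differed by 46.2 to 206 times counting noise (chi-square per degree of freedom), so none was a copy of another. The highest values, 189 and 206, were those of WT replicate 1 with WT replicates 2 and 3. All libraries were kept.

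The 9 genes and all gene lists were chosen with earlier results of these data known. All 9 genes are described, with every measured splicing event; those that differed by 5 points or more are named with values. From the other lists the PTS2 cargo and other peroxins are named by rule, except that some peroxins are not reported here; the enzymes and transporters named were chosen after their values were seen. On simulated data edgeR recovered 86% of genes changed 2-fold and 10% of those changed 1.5-fold. It recovered 14% of cassette exons with odds changed 4-fold (DESeq2 68%, with 27 false calls against 1). The simulation gave every gene the same spread between libraries, and changed only exons at intermediate inclusion, below that of Pex7 exon 4. These shares need not hold in the real libraries, where edgeR called 0 of 13905 genes. There H2-Aa, with a log2 fold change of -2.71, had an edgeR adjusted p of 0.183.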

Additional observations from a re-analysis of the deposited data

How the results depend on the processing

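Over 12 alternatives the difference of Pex7 exon 4 stayed between -9.90 and -9.17 points, and leaving out 1 library gave the same range. Some of the 12 could not move it. A minimum of 50 reads and counting every junction left its reads unchanged, and averaging differences within same-numbered replicates returns the same value by arithmetic. The exon was chosen on this contrast, so the range is a description and no support for the shift. No paired analysis was made part of the report, because the values were mixed on whether the replicate numbers pair the samples. Correlations of same-numbered deviations were 0.28, 0.34 and 0.061 for genes and 0.040, -0.008 and 0.021 for cassette exons. For genes the same number was the best match for S34F replicates 1 and 2, and replicate 1 of both genotypes alone had Ddx3y reads. S34F replicate 3 correlated better with WT replicate 1 (0.13 for genes) than with its own number. With a term for replicate number edgeR called 5 genes, none of them a member. The mean difference of Pex7 exon 4 within same-numbered replicates is -9.45 points by arithmetic, so it is no check of the pairing.

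Counts over the whole table moved more, and for each the cause was not tested. Against 0 in the edgeR fits, DESeq2 called 96 genes, 114 cassette exons (1 of a member, Pex7) and 62 pairs of acceptors. Without both replicate 1 libraries edgeR called 599 genes, and leaving out 1 library gave 0 to 1172 genes, 0 cassette exons and 0 to 3 pairs; the 1172 were without WT replicate 1. Counting every junction that skips or joins an exon gave 5 called cassette exons, and the downstream inclusion junction alone gave 2. Called members stayed at 0 at the gene level in all 11 alternatives. Over these the log2 fold change of Pex6 ran from -0.50 to -0.34 and that of Pex7 from -0.23 to -0.04, while Pex2, Pex5, Pex13, Pex16 and Pex19 were above 0 in some, by at most 0.03. The Pex2 acceptor difference ran from 9.78 to 17.7 points for the 64 nt exon donor and from 2.22 to 12.8 for the upstream donor. The calls of other lists without WT replicate 1 were looked at after seeing the data. With 3 libraries per genotype and about 60 to 207 reads per library, the Pex2 pair is less precise than Pex7 exon 4.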
